A study of Mus musculus with 6 samples.

Results

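The genes described here are 10 enzymes that lengthen and desaturate long-chain and polyunsaturated fatty acids: the elongases Elovl1, Elovl2, Elovl3 and Elovl5, the desaturases Fads1, Fads2, Fads6 and Scd2, and the reductases of the elongation cycle Hsd17b12 and Tecr. They were chosen by symbol as genes of elongation and desaturation, and all 10 were found among the 15960 genes of the expression table. The series holds RNA-seq of 6 mouse liver samples. The knockout group is 3 samples of Cyp2e1-/- mice and the wild type group 3 of Cyp2e1+/+ mice, all C57BL/6 and 22 weeks old per the labels, after 14 weeks on a high-fat diet per the series design. How the Cyp2e1 allele was made, and the sex of the mice, are not stated in the labels or the series design. Values are FPKM (fragment numbers divided by transcript length and by library size), so that levels of different genes can be set side by side per length.

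Fatty acids made or eaten are lengthened in the endoplasmic reticulum by a cycle in which an ELOVL enzyme condenses the acyl chain with malonyl-CoA, HSD17B12 reduces the product, a HACD enzyme removes water, and TECR carries out the last reduction. The plant fatty acids linoleic and alpha-linolenic acid enter a route in which FADS2 adds the opening double bond, ELOVL5 lengthens the chain, FADS1 desaturates again to give arachidonic and eicosapentaenoic acid, and ELOVL2 extends these towards docosahexaenoic acid. ELOVL3 and ELOVL1 work mainly on saturated and monounsaturated chains. In liver, SREBP-1c, LXR and PPARα are known regulators of the desaturases, and Elovl3 is known in mice as a male-biased, clock-driven liver gene that is also induced in brown fat.

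Of the 10 genes, 1 rose in the knockout, 0 fell, 8 did not pass the test and 1, Scd2, was too low to be tested. Elovl3 was the gene that rose, to 2.42 times the wild type FPKM. Here "rose" and "fell" are used of genes with an adjusted p under 0.05 (limma on log2(FPKM + 1), Benjamini-Hochberg over 9968 tested genes), and over all tested genes 0.472% rose and 0.291% fell. The median log2 fold change of the 9 tested genes was 0.0092, beside -0.028 over all tested genes. The 2 genotypes were without overlap for 4 of the 9, against 15.4% of all tested genes. For Elovl3 and Fads2 the knockout values were the higher ones, and for Elovl1 and Hsd17b12 the lower ones. At an unadjusted p under 0.05 there were 3 of the 9, beside 9.93% of all tested genes. The 2 libraries numbered 1 lay away from the other 4. With both left out, which leaves 2 libraries per genotype, 3 of the 9 passed (Elovl3 and Fads2 higher, Hsd17b12 lower), beside 11.9% of all tested genes. The libraries left out were those with the lowest quality weights in these same data, so these calls are no separate support. Among markers of other cells the Kupffer cell genes Clec4f and Cd5l, the endothelial gene Lyve1 and the cholangiocyte marker Spp1 also passed without these 2 libraries. All were lower in the knockout (log2 fold change -0.83, -0.92, -0.98 and -0.46; limma, adjusted p = 0.0038, 0.0033, 0.020 and 0.018). Other markers of these cells differed in part. With all libraries 1 of 6 Kupffer cell markers (Marco, 0.080) and 1 of 5 endothelial markers (Clec4g, 0.30) had a positive fold change. The positive sign of Marco rested on knockout replicate 1, at 5.42 FPKM. In replicates 2 and 3 every listed Kupffer cell marker, Marco too, was lower in both knockout libraries than in both wild type libraries. Of the cholangiocyte markers too low to be tested, Krt7, Epcam and Sox9 had the higher mean in the knockout and Krt19 the lower, each with overlap of the groups. The part of these cells in the members' values was not tested. Without the 2 libraries numbered 1, the hepatocyte markers Tat and Cps1 passed as well. Their knockout values were the higher ones (log2 fold change 1.175 and 0.46; limma, adjusted p = 1.6e-05 and 0.0022).

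**Figure D1:**
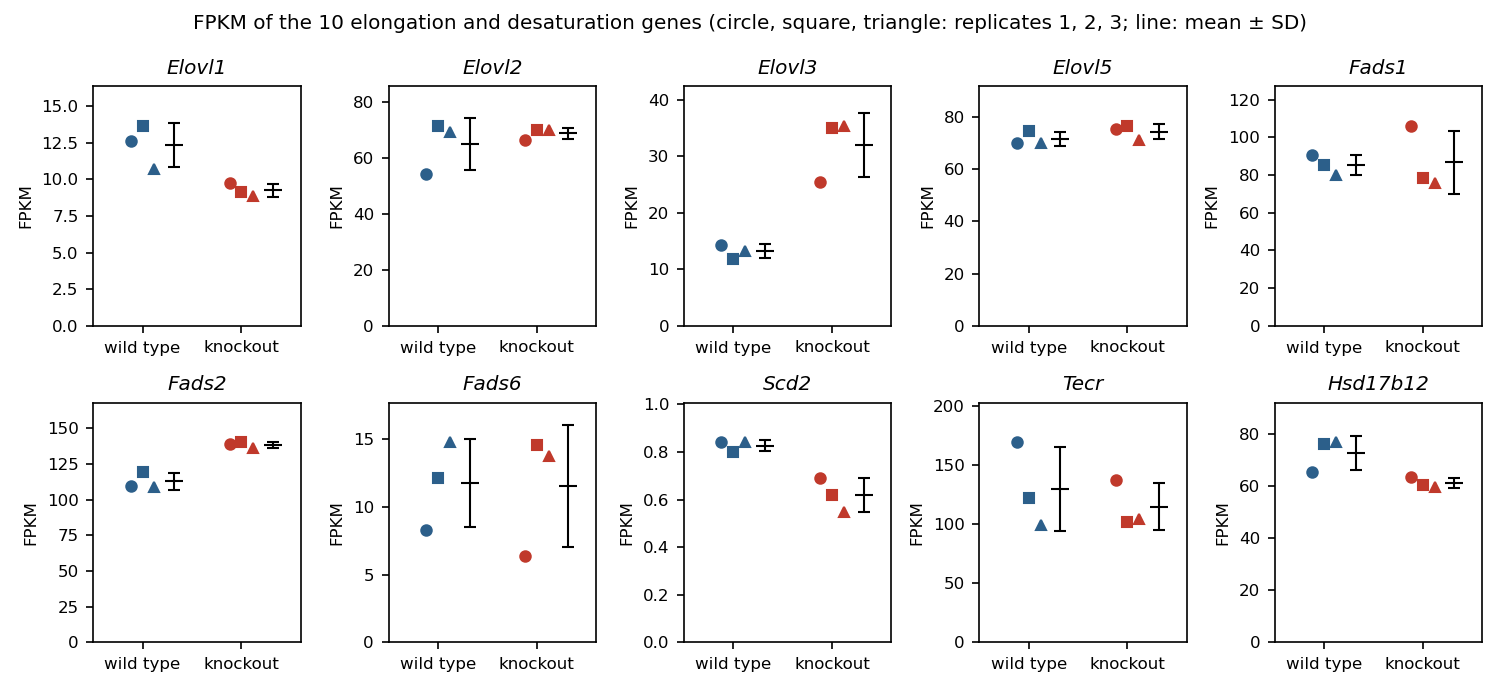
FPKM of each of the 10 genes in the 3 wild type (blue) and 3 knockout (red) libraries, with replicates 1, 2 and 3 as circle, square and triangle and the group mean ± SD beside them. Elovl3 stands at 25.4 to 35.3 FPKM in knockout livers and 11.9 to 14.4 in wild type, and the 2 groups also stand apart, by less, for Elovl1, Fads2, Hsd17b12 and Scd2.

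The 10 genes covered a wide range of levels. Averaged over the 6 libraries, Fads2 was highest at 126 FPKM, and Scd2 lowest at 0.723. The order ran from Fads2 through Tecr (122 FPKM), Fads1 (86.0), Elovl5 (72.8), Hsd17b12 (67.0), Elovl2 (66.9), Elovl3 (22.6), Fads6 (11.6) and Elovl1 (10.8) to Scd2. The order of the group means turned with genotype for some genes, in part within their spread. In wild type Tecr (130 FPKM) stood above Fads2 (113) and Hsd17b12 (72.8) above Elovl5 (71.4), whereas in the knockout Fads2 (138) stood above Tecr (115) and Hsd17b12 (61.3) below Elovl2 (68.8). Several neighbours in the pooled order did not differ beyond their spread. Fads2 exceeded Tecr in 4 of 6 libraries, Elovl5 exceeded Hsd17b12 in 4 of 6, Hsd17b12 exceeded Elovl2 in 3 of 6, and Fads6 exceeded Elovl1 in 3 of 6. Elovl3 exceeded Fads6 in 4 of 6. Tecr above Fads1, Fads1 above Elovl5, Elovl2 above Elovl3 and Elovl1 above Scd2 held in 6 of 6 libraries. Enzymes of the polyunsaturated route (Fads1, Fads2, Elovl2, Elovl5) and of the shared cycle (Hsd17b12, Tecr) thus stood at higher mean levels than the remaining 4 genes. Samples here are bulk liver, in which fewer cells of a type and less RNA per cell cannot be told apart.

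Upstream sequence is shown for a gene whose levels were alike in the genotypes (Elovl5) and for one whose knockout values lay below wild type (Hsd17b12). RefSeq windows on GRCm38.p6, from 250 bases before to 50 after a transcript start, were matched for 7 of the 10 genes at 9 starts; Elovl3, Fads1 and Scd2 were not among them. The stretches below run 5′ to 3′ and leave out bases annotated as exonic. Capitals mark matches, on either strand, to CCAAT, the binding element of the factor NF-Y, to the E-box CACGTG, and to the GC box GGGCGG.
Elovl5, chr9:77917115-77917363, plus strand: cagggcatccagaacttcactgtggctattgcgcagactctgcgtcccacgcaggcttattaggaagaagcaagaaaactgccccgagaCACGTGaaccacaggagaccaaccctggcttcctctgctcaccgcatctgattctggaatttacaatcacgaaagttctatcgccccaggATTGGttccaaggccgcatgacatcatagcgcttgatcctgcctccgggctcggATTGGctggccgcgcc
Hsd17b12, chr2:94157965-94158159, minus strand: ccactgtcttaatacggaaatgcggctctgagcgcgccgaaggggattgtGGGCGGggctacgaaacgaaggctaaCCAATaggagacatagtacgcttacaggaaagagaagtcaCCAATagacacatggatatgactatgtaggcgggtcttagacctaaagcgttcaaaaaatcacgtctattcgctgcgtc

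Among the 9 windows CCAAT was found in 4, against 37.4% of all 32851 RefSeq windows of 300 bases, and GGGCGG in 7, against 35.7%. Some windows come from the same gene (Elovl1 and Elovl2), and those of Elovl2 overlap. G and C made up 51.0% to 84.7% of the bases of these windows, and the comparison was not matched for this. CACGTG was in 1 of the 9, that of Elovl5, against 7.15%, and the nuclear receptor half-site AGGTCA in 2, against 16.3%. The sterol regulatory element TCACNCCAC and the STAT element TTCNNNGAA were in 0 of the 9, against 1.24% and 8.3%. These are matches of letters in these windows and describe no binding, and in the stretches shown no match overlaps another.

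Elovl3, the elongase of saturated and monounsaturated very long chains (gene 12686, chromosome 19, 46131897 to 46135694, GRCm38.p6), was the member that rose. Its FPKM was 25.4, 35.0 and 35.3 in knockout replicates 1, 2 and 3 and 14.4, 11.9 and 13.3 in wild type replicates 1, 2 and 3. All knockout libraries lay above all wild type libraries, and knockout replicate 1 was the lowest of its group. The group levels were 31.9 ± 5.62 FPKM in knockout livers and 13.2 ± 1.24 in wild type (SD, n = 3 each). On the log2 scale this was a change of 1.20 (SE 0.16, 95% interval 0.86 to 1.55; limma, adjusted p = 0.0061), the 27th smallest p and the 47th largest absolute fold change of the 9968 tested genes. Leaving out knockout replicate 2 ended the call (log2 fold change 1.13; limma, adjusted p = 0.055), and over the other 16 alternatives tried the adjusted p ran from 2.1e-05 to 0.040. Without replicate 1 of both genotypes the log2 fold change was 1.41 (limma, adjusted p = 6.4e-05). Its exons share 10 bases with those of Pitx3 on the other strand. Markers of white and brown fat, where Elovl3 is also known, were at or near 0: of the 9 listed, 5 were in the table, none of these 5 exceeded 0.41 FPKM in any library, and Adipoq, which encodes adiponectin, was listed at 0 in 5 of 6 libraries.

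Elovl1, the elongase of saturated very long chains that feeds ceramide synthesis (gene 54325, chromosome 4, 118426874 to 118432953), stood at 9.71, 9.16 and 8.83 FPKM in knockout livers and 12.6, 13.6 and 10.7 in wild type. The knockout values lay below all wild type values, but the difference did not pass (log2 fold change -0.37, SE 0.14, 95% interval -0.68 to -0.071; limma, adjusted p = 0.37; unadjusted p = 0.021). Its exons overlap those of the cell cycle gene Cdc20 on the other strand over 53 bases, where reads cannot be told apart without strand. Summed markers of cholangiocytes were also lower in the knockout (18.9 to 21.7 FPKM, against 25.4 to 32.4 in wild type; 5 of 5 in the table, 0 passed the test, and nearly all of the sum is Spp1), and so were Kupffer cell markers in 2 of 3 knockout libraries (57.8 to 113 FPKM, against 108 to 124; 6 of 6 in the table, 0 passed). The other 4 cholangiocyte markers reached at most 0.88 FPKM, and 3 of them had the higher mean in the knockout: Krt7 (0.33 FPKM against 0.18), Epcam (0.35 against 0.22) and Sox9 (0.68 against 0.34). For each of these the groups overlapped. The higher mean of Krt7 rested on knockout replicate 1 (0.71 FPKM, against 0.14 in each of knockout replicates 2 and 3). The part of these cells in the level of Elovl1 was not tested.

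The elongases of the polyunsaturated route were at like levels in the genotypes. Elovl5 (gene 68801, chromosome 9, 77917365 to 77984519) had 75.2, 76.4 and 70.9 FPKM in knockout livers and 69.9, 74.4 and 69.7 in wild type, the narrowest spread of the 10 genes, with the highest library 1.10 times the lowest. Its log2 fold change was 0.055, with a 95% interval of -0.19 to 0.30 (limma, adjusted p = 0.94). Elovl2 (gene 54326, chromosome 13, 41182382 to 41220403), needed in mice for the longest polyunsaturated chains, had 66.5, 69.9 and 69.9 FPKM in knockout livers and 54.2, 71.3 and 69.3 in wild type. Wild type replicate 1 was its lowest library, and the other 5 lay within 66.5 to 71.3. The log2 fold change was 0.091 (95% interval -0.20 to 0.39; limma, adjusted p = 0.91), and without wild type replicate 1 it was -0.032.

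**Figure D2:**
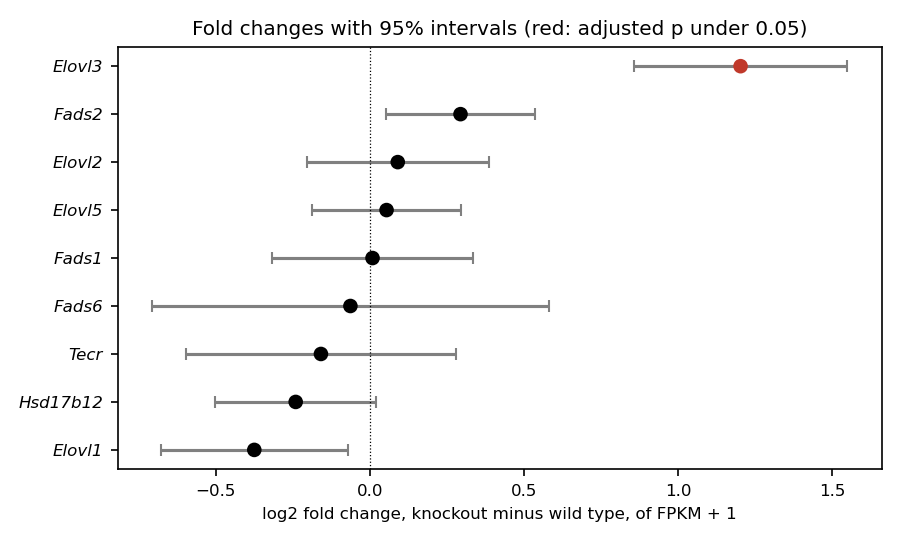
Log2 fold change (knockout minus wild type, on FPKM + 1) of the 9 tested genes, with 95% confidence intervals from limma. The interval of Elovl3, 0.86 to 1.55, lies apart from 0 and the point is red because the adjusted p is 0.0061; those of Fads2 and Elovl1 exclude 0 without passing the adjusted threshold.

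The share that each elongase took of the summed elongase FPKM was set out with Elovl6, the elongase of palmitate that is no member here, as the fifth gene. Elovl3 took 14.3%, 18.2% and 18.9% of the sum in the knockout libraries and 9.34%, 6.73% and 7.87% in wild type. The means were 17.1% ± 2.50 and 7.98% ± 1.31 (SD, n = 3 each). Elovl5 took 39.9% ± 2.13 in knockout livers and 43.0% ± 2.29 in wild type, and Elovl2 37.0% ± 0.55 and 38.9% ± 3.10, and for both of these the groups overlapped. Elovl1 took 4.98% ± 0.40 and 7.42% ± 0.98. The summed FPKM of the 5 elongases was 186 ± 6.98 in knockout livers and 167 ± 11.8 in wild type, of which the difference in mean Elovl3, 18.7 FPKM, was the largest part.

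**Figure D3:**
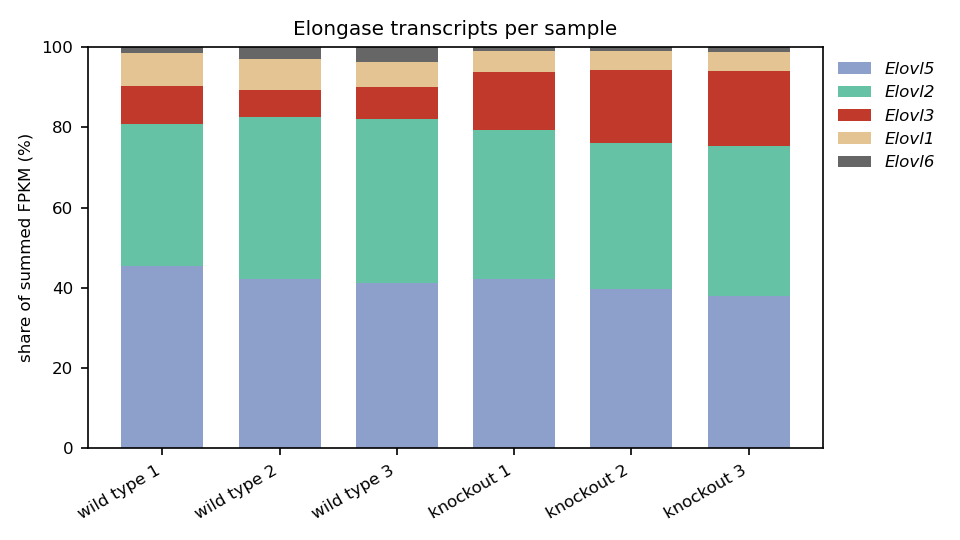
Share (%) of each elongase in the summed FPKM of Elovl1, Elovl2, Elovl3, Elovl5 and Elovl6, per library. The red segment, Elovl3, covers 14.3% to 18.9% in knockout livers and 6.73% to 9.34% in wild type, while Elovl5 and Elovl2 together take most of the sum in every library.

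In the shared cycle, Hsd17b12, the 3-ketoacyl-CoA reductase (gene 56348, chromosome 2, 94032697 to 94157909), stood at 63.7, 60.6 and 59.8 FPKM in knockout livers and 65.3, 76.1 and 76.9 in wild type. The groups did not overlap, though wild type replicate 1 lay close to knockout replicate 1, and the difference did not pass (log2 fold change -0.24, SE 0.12, 95% interval -0.50 to 0.021; limma, adjusted p = 0.55). Without replicate 1 of both genotypes it did (log2 fold change -0.34; limma, adjusted p = 0.018), as did 11.9% of all tested genes. Tecr, the enoyl-CoA reductase that closes the cycle (gene 106529, chromosome 8, 83571698 to 83594491), had 137, 102 and 105 FPKM in knockout livers and 169, 122 and 99.3 in wild type. Replicate 1 was its highest library in each genotype, and the groups overlapped (log2 fold change -0.16, 95% interval -0.60 to 0.28; limma, adjusted p = 0.88). Of the 31-base words of Tecr transcripts 10.2% also occur in other annotated genes, so some of its reads may have been shared.

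Of the desaturases, Fads2 (gene 56473, chromosome 19, 10062765 to 10101503), which opens the polyunsaturated route, had 139, 140 and 136 FPKM in knockout livers and 109, 120 and 109 in wild type. The knockout libraries lay close to each other and all above wild type. The difference of 25.7 FPKM between the means was the largest in FPKM of the 10 genes, but on the log2 scale it was 0.29 (SE 0.11, 95% interval 0.053 to 0.54) and it did not pass (limma, adjusted p = 0.38; unadjusted p = 0.022). It passed without replicate 1 of both genotypes (log2 fold change 0.27; limma, adjusted p = 0.047), where the fold change was no larger and 11.9% of all tested genes passed. Fads1 (gene 76267, chromosome 19, 10182877 to 10196874), the neighbour of Fads2 that acts later in the same route, had 106, 78.3 and 75.9 FPKM in knockout livers and 90.7, 85.2 and 79.9 in wild type. Knockout replicate 1 was its highest library and the groups overlapped, with a log2 fold change of 0.0092 (95% interval -0.32 to 0.34; limma, adjusted p = 0.99). The level of Fads1 relative to Fads2 was 0.762, 0.559 and 0.558 in knockout livers and 0.830, 0.712 and 0.732 in wild type. Knockout replicate 1 lay among the wild type ratios and knockout replicates 2 and 3 lay below all of them.

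Fads6, a desaturase-like gene whose reaction is less well defined (gene 328035, chromosome 11, 115278626 to 115297731), had 6.37, 14.5 and 13.7 FPKM in knockout livers and 8.29, 12.1 and 14.7 in wild type. It was lowest in replicate 1 of each genotype, and its coefficient of variation, 38.9% in knockout livers and 27.6% in wild type, was the largest of the 10 genes in each group. The log2 fold change was -0.063, with a 95% interval of -0.71 to 0.58 (limma, adjusted p = 0.98). Scd2 (gene 20250, chromosome 19, 44293676 to 44306864), the stearoyl-CoA desaturase known from mouse brain and newborn tissues, was barely present, at 0.69, 0.62 and 0.55 FPKM in knockout livers and 0.84, 0.80 and 0.84 in wild type. The groups did not overlap, and the exact two-sided permutation test gave p = 0.10, the smallest that 3 against 3 libraries allow. By the depth estimated from steps in the values, these levels stand for about 28 to 46 fragments per library. Scd1, the main stearoyl-CoA desaturase of adult liver, stood at 41.2 to 83.9 FPKM, and 4.63% of the 31-base words of Scd2 also occur in Scd1, so the source of these few fragments is uncertain.

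The wider pathway was described with 78 further genes in 9 lists, of which 57 were tested. Among these 1 rose, 0 fell and 56 did not pass, with a median log2 fold change of -0.0078 and 28 of 57 above 0. The gene that rose was Insig2, which encodes an endoplasmic reticulum protein that holds SREBP back from processing (gene 72999, chromosome 1, 121304353 to 121332662). Its FPKM was 69.6, 73.5 and 67.1 in knockout livers and 32.7, 35.7 and 34.8 in wild type, with every knockout library above every wild type library. The change was 1.01 on the log2 scale, with an SE of 0.11 (limma, adjusted p = 0.0026), and it passed under each of the 17 alternatives tried (limma, adjusted p = 3.3e-05 to 0.032). The remaining 11 of 12 tested regulators did not pass. Srebf2, the sterol-sensing SREBP, had 10.2, 12.6 and 12.1 FPKM in knockout livers and 9.72, 8.27 and 7.91 in wild type (log2 fold change 0.39; limma, adjusted p = 0.37). Srebf1, which encodes SREBP-1c, had 16.6, 17.6 and 20.9 FPKM against 30.2, 20.01 and 15.03, and Ppara 23.0, 40.0 and 43.4 against 19.5, 40.4 and 38.3. Ppara was lowest in replicate 1 of each genotype. These last 3 genes were chosen after their values were seen.

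**Figure D4:**
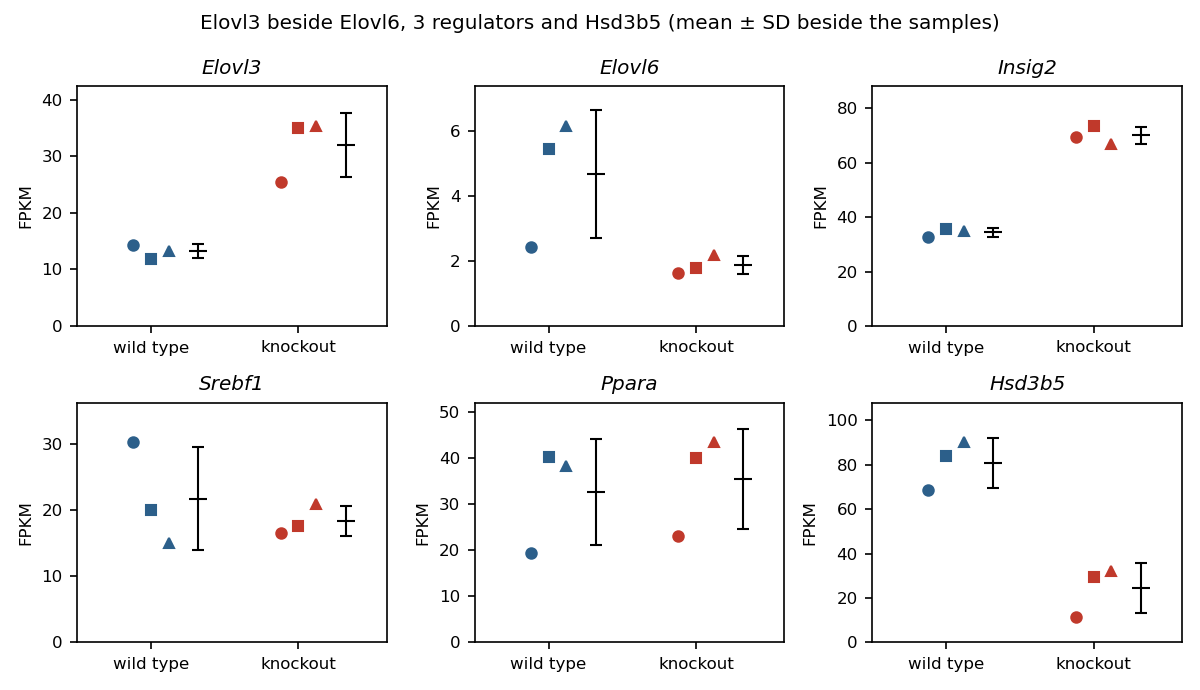
FPKM of Elovl3, Elovl6, Insig2, Srebf1, Ppara and Hsd3b5 in the 3 wild type (blue) and 3 knockout (red) libraries, with replicates 1, 2 and 3 as circle, square and triangle and the group mean ± SD beside them. Elovl3 and Insig2 stand higher in every knockout library, Elovl6 and Hsd3b5 lower, and Srebf1 and Ppara overlap.

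Among the other elongation genes 0 of 4 tested passed, and their median log2 fold change was -0.033, beside -0.028 over all tested genes, of which 5567 of 9968 had a negative fold change. Elovl6 (gene 170439, chromosome 3, 129532386 to 129638495) had 1.63, 1.78 and 2.17 FPKM in knockout livers and 2.43, 5.44 and 6.14 in wild type, without overlap (-0.92 on the log2 scale, with an SE of 0.26; limma, adjusted p = 0.20). It passed without wild type replicate 1 (log2 fold change -1.25; limma, adjusted p = 0.011) and without replicate 1 of both genotypes (log2 fold change -1.19; limma, adjusted p = 0.0018). In the latter setting 11.9% of all tested genes passed. The level of Elovl3 relative to Elovl6 was 15.6 to 19.7 in the knockout libraries and 2.17 to 5.91 in wild type. Hacd1, a dehydratase of the cycle, had 10.04, 10.2 and 7.5 FPKM against 8.86, 11.1 and 8.63. Of the other desaturases 0 of 2 tested passed: the sphingolipid desaturase gene Degs1 had 24.7 to 29.2 FPKM in knockout livers and 28.1 to 30.9 in wild type, and Scd1 41.2 to 83.9 and 55.4 to 65.4.

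Desaturases take electrons from cytochrome b5. Of 6 tested genes of electron supply 0 passed, and 5 had a negative fold change, beside 5567 of 9968 over all tested genes. Por, the P450 reductase that also passes electrons to cytochrome b5, was the exception, with 297, 296 and 335 FPKM in knockout livers and 260, 203 and 176 in wild type, without overlap (log2 fold change 0.55; limma, adjusted p = 0.20). It passed without wild type replicate 1 (log2 fold change 0.71; limma, adjusted p = 0.030). Cyb5r4, a cytochrome b5 reductase, had 7.88, 10.4 and 8.95 FPKM against 10.7, 10.4 and 11.8.

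Neither the entry of fatty acids into the route nor the use of its products held a gene that passed. Of the acyl-CoA synthetases 0 of 7 tested passed. Acsl5 stood at 58.6 to 61.8 FPKM in knockout livers and 68.8 to 75.8 in wild type, and Slc27a2 at 722 to 946 and 652 to 800. In peroxisomal chain shortening, which completes docosahexaenoic acid, 0 of 10 passed, and 7 had a positive fold change, beside 4401 of 9968 over all tested genes. The thiolase gene Acaa1b had 449, 932 and 939 FPKM in knockout livers and 598, 505 and 501 in wild type, with knockout replicate 1 below all wild type libraries, and it passed without that library (log2 fold change 0.81; limma, adjusted p = 0.013). Of the acyltransferases that place polyunsaturated chains in phospholipids 0 of 4 passed, with Agpat3 at 56.0 to 72.7 FPKM in knockout livers and 46.0 to 55.2 in wild type and Mboat7 at 5.12 to 9.15 and 4.93 to 8.07. Of 10 tested genes of oxygenation 0 passed and 8 had a negative fold change, beside 5567 of 9968 over all tested genes. The epoxygenase gene Cyp2j5 stood at 141 to 150 and 161 to 190 FPKM, and Ephx2, the soluble epoxide hydrolase, at 530 to 571 and 441 to 496. Of the ceramide synthases 0 of 2 passed. Cers2, the synthase for very long chains, stood at 81.6 to 84.2 and 93.9 to 98.2 FPKM, without overlap, and Cers6 at 1.01 to 1.34 and 0.63 to 2.01.

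**Figure D5:**
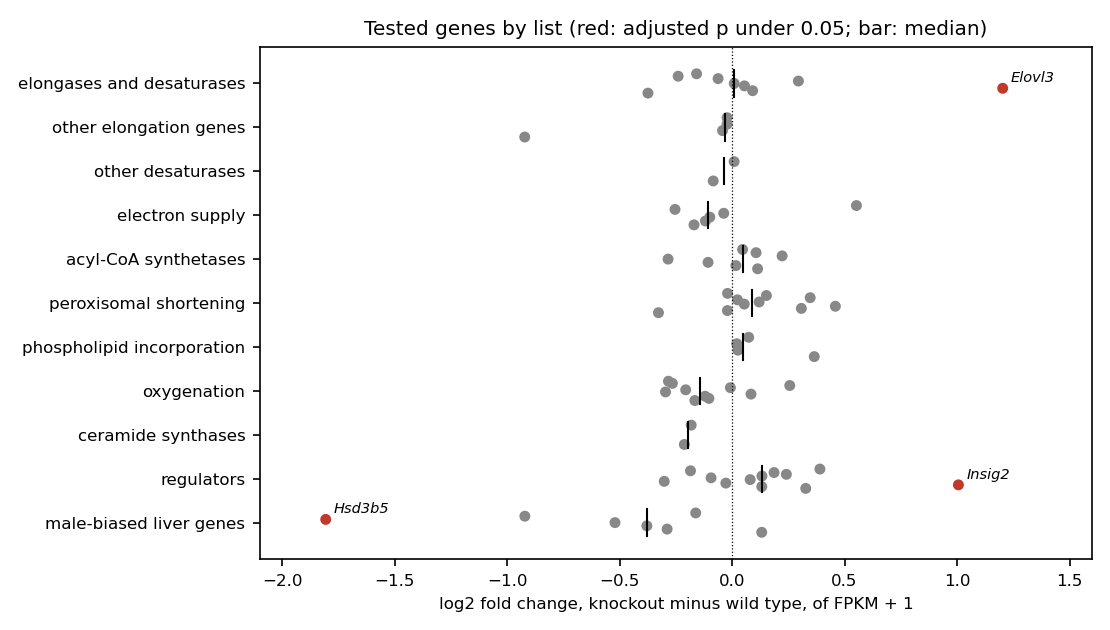
Log2 fold change (knockout minus wild type, on FPKM + 1) of every tested gene of the elongases and desaturases, the 9 lists of the wider pathway and the male-biased liver genes, with the median of each list as a bar. Elovl3, Insig2 and Hsd3b5 are the 3 genes in red, with an adjusted p under 0.05, and the medians of the pathway lists lie between -0.20 and 0.13.

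Elovl3 is male-biased in mouse liver, and 7 other male-biased genes were tested. Of these 0 rose and 1 fell. The remaining 6 missed the threshold, 6 of 7 were lower on average in the knockout, and their median log2 fold change was -0.38. Hsd3b5, a steroid dehydrogenase gene (gene 15496, chromosome 3, 98618636 to 98645534), fell, with 11.4, 29.6 and 32.0 FPKM in knockout livers and 68.4, 83.8 and 90.0 in wild type (-1.81 on the log2 scale, with an SE of 0.32; limma, adjusted p = 0.037). It no longer passed when knockout replicate 2 or any of wild type replicates 1, 2 and 3 was left out (limma, adjusted p = 0.071, 0.056, 0.14 and 0.16). Elovl3 had the opposite sign to 6 of these 7 genes, a count with no test of its own. Over all tested genes 5567 of 9968 had a negative fold change.

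The tested genes outside the 10 whose profile over the 6 libraries lay nearest to that of Elovl3, by the root mean square difference of mean-centred log2(FPKM + 1), were Zfp966 (0.098), Pcp4l1 (0.11) and Scara5 (0.18). Since they were picked for their likeness to Elovl3 over the same libraries, their own difference between the genotypes and their order of libraries follow in large part from that choice and are given as a description. Pcp4l1 had 24.1, 35.9 and 34.8 FPKM in knockout livers and 17.6, 11.9 and 14.3 in wild type, with knockout replicate 1 the lowest knockout library and wild type replicate 1 the highest wild type library, as for Elovl3. For Elovl1, the member with the next smallest adjusted p, the nearest were Zap70 (0.045), Naa35 (0.058) and Mrps2 (0.059).

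Cyp2e1 itself stood at 247 to 271 FPKM in the knockout libraries and 5942 to 7427 in wild type. Hepatocyte markers were high in every library, with Alb at 24938 to 33779 FPKM, and 0 of 5 passed; Cps1 stood at 622 to 719 FPKM in knockout livers and 367 to 531 in wild type, and Tat at 310 to 729 and 272 to 320. Among markers of other cells, 0 of 6 tested Kupffer cell, 0 of 5 endothelial, 0 of 5 stellate, 0 of 1 cholangiocyte and 0 of 1 lymphocyte and neutrophil genes passed. Those with the smallest p were Clec4f and Cd5l (log2 fold change -0.61 and -0.58), Lyve1 and Pecam1 (-0.60 and -0.50), Hgf and Reln (-0.15 and -0.12), Spp1 (-0.53) and S100a8 (-0.12). The endothelial markers did not all fall together. Clec4g was higher in the knockout, without overlap (log2 fold change 0.30), and 4 of 5 had a negative fold change, with Stab2 at -0.11. Of the Kupffer cell markers 5 of 6 had a negative fold change, and Marco was at 0.080. That sign rested on knockout replicate 1, at 5.42 FPKM. Knockout replicates 2 and 3, at 1.61 and 1.06, lay below all wild type libraries (1.75 to 2.41). Without knockout replicate 1 alone, Clec4f, Cd5l and Lyve1 passed with lower knockout values (limma, adjusted p = 0.025, 0.029 and 0.044). Tat, a hepatocyte marker, also passed without that library, but with higher knockout values (log2 fold change 1.24; limma, adjusted p = 0.0013). Cps1 did not pass there (log2 fold change 0.62; limma, adjusted p = 0.099). Of 3 tested red cell genes 1 fell, Alas2, at 8.65 to 10.4 FPKM in knockout livers and 44.1 to 50.01 in wild type (limma, adjusted p = 2.0e-05). The other 2, the globin genes Hba-a1 and Hba-a2, did not pass (log2 fold change 0.080 and -0.13). Their means were 171 and 116 FPKM in knockout livers and 176 and 128.5 in wild type. Replicate 1 stood apart in both genotypes, with a weight of 0.37 in knockout livers and 0.29 in wild type when libraries were weighted by quality, against 1.10 to 2.86 for the others, and the top 10 genes held 37.7% of all FPKM in knockout replicate 1 and 32.5% to 33.5% elsewhere.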

How the data were processed

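Per the labels' protocols, total liver RNA was extracted with a Qiagen miRNeasy kit and made into libraries with an Illumina TruSeq RNA kit. HISAT and the build mm10 are named in the submitters' processing notes. The program behind the values, its annotation and any use of strand are not stated there. The authors deposited FPKM values per gene, per the file headers, to 2 decimals for 15960 genes. As FPKM are not counts, they were not given to a count model.

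The 9968 genes that reached 1 FPKM in 3 or more of the 6 samples were tested with limma 3.58.1 (lmFit, eBayes with trend, R 4.3.3) on log2(FPKM + 1), knockout against wild type, after the fit was checked on simulated data. Adjusted p-values are Benjamini-Hochberg over all 9968. Fold changes on this scale understate the change of low genes. Intervals are 95% and are not adjusted. Alternatives were other pseudocounts, filters, scalings, variance models and sample weights, a replicate block, and leaving out libraries.

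Nothing beyond the sample numbers says that the samples came from separate mice, so p-values reflect only how these samples vary, which may be technical. Samples were grouped by title and genotype. The replicate block treats same-numbered samples as pairs, and the pairing comes from the titles alone. Deviations of same-numbered samples correlated at 0.30, 0.20 and 0.157 over tested genes for replicates 1, 2 and 3. Knockout replicate 3 correlated with wild type replicate 2 at 0.212, so the values do not single out the same-numbered pairs of replicates 2 and 3. The deviations of a group sum to 0, so these values are not independent.

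Depth is not stated. Low FPKM of transcripts of 450 to 1200 bases, shortened by 100 bases, fell on steps (69.8% to 76.5% at most 0.15 from a whole number of steps, where 30% would do so by chance) that put it at 12.2 M fragments for knockout replicate 1 and 9.22 to 9.92 M for the others; depth and shortening were fitted to the same values. Positions are from RefSeq on GRCm38.p6, the assembly mm10 names; overlaps and shared words are from GENCODE M21.

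The members and lists were chosen with earlier results of these data known. The rule for named genes takes the 10 members, every called gene of a list or else the 2 tested with the smallest p, and the 3 nearest profiles of the 2 members with the smallest adjusted p. One gene the rule names is not reported here.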

Additional observations from a re-analysis of the deposited data

How the results depend on the processing

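Elovl3 was higher in the knockout under all 17 alternatives (log2 fold change 1.12 to 1.41) and passed under 16. Leaving out 1 library at a time gave 0 to 1 member calls, 0 to 1 of them rises, a log2 fold change of Elovl3 of 1.12 to 1.35, 29 to 211 calls over all genes against 76 with all samples, and 1 to 3 calls in the pathway lists against 1. With these libraries left out in turn, Elovl2 ran from -0.032 to 0.16, Fads1 from -0.14 to 0.10, Fads6 from -0.27 to 0.28, Tecr from -0.33 to 0.047, Scd1 from -0.23 to 0.28, Hacd1 from -0.11 to 0.087, Mboat7 from -0.11 to 0.26, Reln from -0.25 to 0.045 and S100a8 from -0.73 to 0.52, so their signs were not fixed.

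Without replicate 1 of both genotypes 3 members passed, 2 of them higher (Elovl3, and Fads2 at 0.27) and 1 lower (Hsd17b12 at -0.34). In that setting 1183 of 9968 tested genes (11.9%) and 13 of 57 tested genes of the pathway lists were called. There Elovl2 was at -0.0080, Fads1 at -0.097, Fads6 at 0.073 and Scd1 at -0.28. Sample quality weights also gave 3, 2 higher and 1 lower (Fads2 at 0.28 and Hsd17b12 at -0.31). They called 1151 of 9968 tested genes and 12 of 57 in the pathway lists. With them Fads1 was at -0.062, Fads6 at 0.055, Scd1 at -0.088 and S100a8 at 0.20. Both settings act on the same libraries: replicate 1 of each genotype is left out in the first and had the lowest weights in the second (0.37 and 0.29). Why these settings call more genes was not tested. With no filter on low values 32 genes were called, and with a mean of at least 5 FPKM 30. For Scd2 the difference of -0.17 was -0.37 with a pseudocount of 0.1 and -0.25 with 0.5. With the replicate block Elovl3 kept its call (log2 fold change 1.20; limma, adjusted p = 0.035), 72 genes were called over all genes, and the block changed no call among the 10 genes and the lists' named genes. Hsd3b5 did not pass with no filter, with a mean of at least 5 FPKM or without a variance trend (limma, adjusted p = 0.17, 0.057 and 0.052). TPM, median-ratio and quantile scaling moved the median of all genes by under 0.1 and changed no sign or call of the 10 genes. The low FPKM of Scd2 limits what can be said of it.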
